A study of Mus musculus with 384 samples.

Results

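Lgr6 is a receptor for R-spondins, secreted proteins that raise Wnt signalling by protecting the Wnt receptors from removal at the cell surface. In the adult lung of Lgr6-EGFP-IRES-CreERT2 knock-in mice, EGFP is driven by the Lgr6 locus, and cells sorted on EGFP are called Lgr6+ cells. Airway smooth muscle cells (ASMCs) hold actin, myosin and their regulatory proteins in a contractile apparatus that sets the width of the airway, whereas alveolar fibroblasts are matrix and lipid-handling cells of the gas-exchange region. The 2 groups described here are both Lgr6+ cells of the same mice. They were chosen by the Lgr6 read count itself: a cell was positive with a count above 0 and negative with a count of 0. Whether transcripts of the knock-in allele add to that count is not given in the sources used here.

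Of the Lgr6+ cells that passed the authors' quality filter, 39 were positive and 86 were negative, among 384 wells in the whole series. Lgr6 mouse 1 gave 13 positive and 37 negative cells, and Lgr6 mouse 2 gave 26 positive and 49 negative cells. Lungs were dissociated and live cells were gated as CD31-CD45-CD11b-TER119-GFP+, so positive and negative cells share the allele, the reporter and the gate. Mice of the study were mostly 7 to 10 weeks old. EGFP is a protein and can outlast the transcript, and EGFP itself was not analysed here. The 2 mice are the replicates and cells are not, and for 2 pairs an exact permutation test cannot give a p below 0.5, so that tests rest on models fitted across all genes.

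The Lgr6 gene lies on the minus strand at chr1:134983301-135105276 (GENCODE vM21, GRCm38, the same build as mm10). Its proximal promoter is the sequence common to both groups, at the locus that drives the reporter and the transcript that separated the cells. The 250 bases before the RefSeq start of Lgr6, chr1:135105277-135105526 (GRCm38.p6, minus strand, written 5′ to 3′), are shown on a line of their own.

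Lgr6: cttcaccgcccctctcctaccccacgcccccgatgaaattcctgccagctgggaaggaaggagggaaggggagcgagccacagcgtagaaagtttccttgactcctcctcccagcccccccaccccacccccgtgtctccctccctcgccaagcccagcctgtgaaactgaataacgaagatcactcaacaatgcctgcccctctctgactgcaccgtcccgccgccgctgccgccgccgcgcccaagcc

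Lgr6 reads in the positive cells covered a wide range. In mouse 1 the lowest, median and highest counts were 1, 16 and 653, and the 13 cells together held 1291 Lgr6 reads, or 145.9 CPM (counts per 1000000 reads). In mouse 2 the counts were 3, 71.5 and 1522, with 5852 reads in 26 cells, or 119.2 CPM. A single cell held 50.6% of the Lgr6 reads of mouse 1 and 26.01% of those of mouse 2. Of the 39 positive cells, 11 had a count from 1 to 9 and 28 a count of at least 10. These are the values that formed the groups, and they are given without a test.

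**Figure D1:**
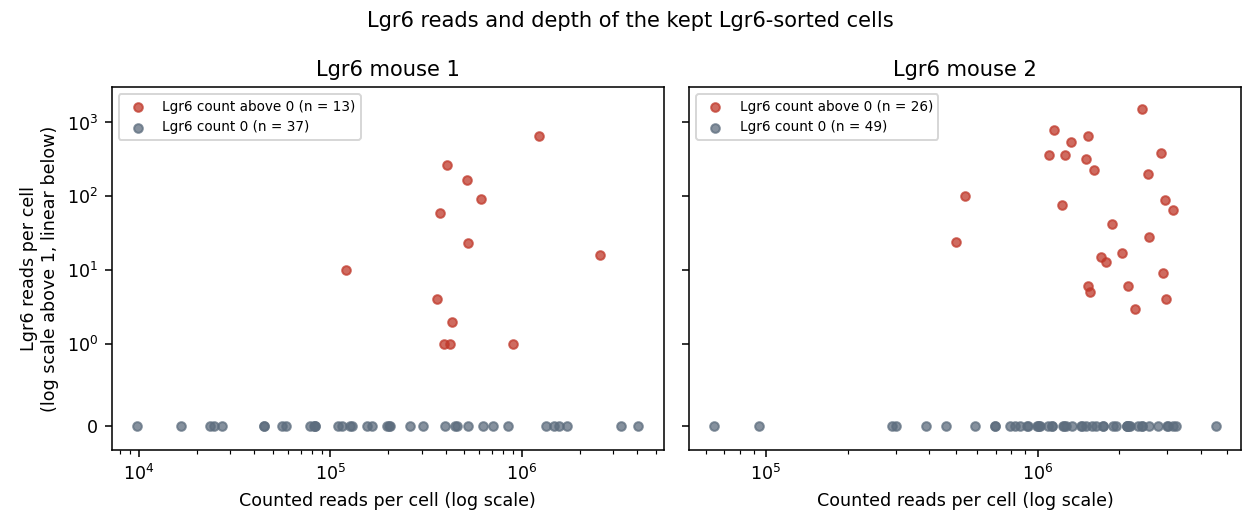
Lgr6 reads per cell (vertical axis, log scale above 1) against counted reads per cell (horizontal axis, log scale) in the 50 and 75 kept Lgr6+ cells of mouse 1 and mouse 2; each point is a cell, red for positive and grey for negative. Every mouse 1 cell under 120314 reads was negative, and in both mice negative cells also reach the greatest depths.

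Positive cells were read more deeply. The median total was 430191 reads in positive and 165685 in negative cells of mouse 1, and 1748600 against 1333971 in mouse 2. The median number of genes detected was 3713 against 3023 in mouse 1 and 3958.5 against 3592 in mouse 2. A count of 0 allowed a level of up to 18.1 CPM in the median negative cell of mouse 1 and 2.25 in that of mouse 2, at a limit of 3 counts, and 6 of 13 and 2 of 26 positive cells had a level below those limits. At these depths, Lgr6 at the level of the weakest positive cells was not detectable in many negative cells. The limit lay below the median level of positive cells in 28 of 37 negative cells of mouse 1 and 48 of 49 of mouse 2. No molecular identifiers were used, and limits and intervals cover counting error only.

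The share of positive cells was 26% in mouse 1 (exact Clopper-Pearson 95% interval 14.6 to 40.3) and 34.7% in mouse 2 (24.04 to 46.5). After every cell was thinned to 83000 reads, which left out 12 cells of mouse 1 and 1 cell of mouse 2, all negative, the mean share over 100 draws was 23.4% and 25.3%, against 34.2% and 35.1% of the same cells before thinning. Cells of the Lgr5 line came from Lgr5-CreERT2 mice with the R26-Tom allele and were sorted on TdTomato after tamoxifen induction. That is a lasting lineage label, unlike EGFP driven by the Lgr6 locus. These cells gave Lgr6 reads in 27.6% (8 of 29 cells) and 32.1% (9 of 28), and in 26.5% and 29.4% when thinned. With 2 mice in each sort, the difference between the sorts was not tested.

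Most positive cells were rich in Acta2, which encodes smooth muscle actin. Of the positive cells, 84.6% lay above the median Acta2 level of their mouse in mouse 1 (11 of 13) and 84.6% in mouse 2 (22 of 26), against 37.8% (14 of 37) and 30.6% (15 of 49) of the negative cells. Seen the other way, Lgr6 reads were found in 44% of cells above the median and 8% of the rest in mouse 1, and in 59.5% and 10.5% in mouse 2. With cells thinned to 83000 reads, these shares were 36.8% and 5.26% in mouse 1 and 43.2% and 10.8% in mouse 2. Positive cells with 1 to 9 Lgr6 reads were above the median in 10 of 11 cells, and those with at least 10 reads in 23 of 28.

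The other 6 positive cells were not alike. One, in mouse 2, had 89 Lgr6 reads, no Acta2, and log2(TPM + 1) values of 18.4 for Sftpc and 8.14 for Epcam, an alveolar type II surfactant gene and an epithelial adhesion gene. Another of mouse 2, with 789 Lgr6 reads, had Mgp at 16.2 and the matrix genes Dcn at 11.5 and Lum at 12.2. One more cell of mouse 2, with 77 Lgr6 reads, had Lgr5 at 10.8. Of the 6, 5 had an Acta2 value of 0 in the TPM table, 4 of them with no Acta2 read and the other, the cell rich in Mgp, with 1, and the sixth lay at the median of mouse 2 with 11.1. Hhip, the Hedgehog-binding protein gene, was between 9.96 and 11.4 in 5 of the 6 cells and at 0 in the Sftpc-rich cell.

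To compare the groups across genes, counts were summed per mouse and group and fitted with the mouse as a block. The quasi-likelihood fit of edgeR called 0 of 13348 genes (0.0%) at a Benjamini-Hochberg adjusted p of 0.05, while 679 genes lay under 0.05 before adjustment. On the same sums DESeq2 called 93 genes higher (0.806% of 11536 with an adjusted p) and 320 lower (2.77%) in positive cells. limma on mean TPM called 5 genes with a pseudocount of 1, all lower (Gpx3, Gsn, Hsd11b1, Inmt and Mgp), and 0 with a pseudocount of 0.1, where 769 lay under 0.05 before adjustment. Directions below are therefore given as measured in each mouse, beside the share of all tested genes that met the same description: 22.8% were higher in both mice, 29.6% lower in both, 7.17% at least 2-fold higher in both and 11.8% at least 2-fold lower in both. For cells thinned or matched on depth, only the share higher in both mice was computed, and only among all kept cells. The median fitted log2 fold change of all genes was -0.23, and 0.06 with depth-matched negative cells.

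All 16 genes of the smooth muscle contractile list were higher in positive than in negative cells of both mice (22.8% of all genes). Of these, 6 were at least 2-fold higher in both (7.17%). The list median log2 fold change was 1.03, and the 16 values ran from 0.72 to 3.13. The paper describes Acta2 and Tagln as high in the Lgr6-high cluster of its kept cells, so this list is not independent of these data. Summed over the list, positive cells held 32745 and 26661 CPM in mouse 1 and mouse 2, against 15097 and 13606 in negative cells. A single negative cell held 51.6% of the list's reads in mouse 1, and without it the negative sum was 8754 CPM. None passed edgeR's threshold, where the lowest adjusted p of the list was 0.96, and DESeq2 called Lmod1 alone.

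Acta2 was at 6897 CPM in positive and 3803 in negative cells of mouse 1, and at 7506 and 3604 in mouse 2, a log2 fold change of 0.94 ± 0.18. Each value after ± is a model standard error, the fitted coefficient divided by the square root of edgeR's F statistic. It rests on dispersions moderated across genes and is not the spread between the 2 mice. The share of cells with any Acta2 read was 84.6% and 92.3% in positive and 89.2% and 89.8% in negative cells. Tagln, which encodes the actin-binding protein transgelin, was at 903 and 352 CPM in mouse 1 and at 1094 and 419 in mouse 2, with a log2 fold change of 1.36 ± 0.29. Unlike Acta2, Tagln was read in more of the positive cells: 13 of 13 and 24 of 26, against 23 of 37 and 32 of 49 negative cells.

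Myh11, the smooth muscle myosin heavy chain, was at 2376 against 1089 CPM in mouse 1 and at 1659 against 686 in mouse 2, with a log2 fold change of 1.18 ± 0.25. Cnn1, calponin, was at 2599 against 1189 and at 1678 against 769, with 1.11 ± 0.23. Both genes were higher in the 2 positive sums than in either negative sum, and the share of all genes separated in this way was not computed. The top negative cell of mouse 1 held 50.7% of the Myh11 and 64.6% of the Cnn1 reads of its group. Myl9, a myosin regulatory light chain, had the smallest p among genes higher in both mice and averaging over 32 CPM, with 3528 against 1443 CPM in mouse 1 and 2319 against 1173 in mouse 2. Myocd, the transcriptional co-activator of smooth muscle genes, was at 670 against 235 and at 527 against 206, a log2 fold change of 1.42 ± 0.34. Lmod1, leiomodin, which nucleates actin in smooth muscle, had the largest fitted fold change of the list: 123.2 against 4.19 CPM in mouse 1 and 95.1 against 35.2 in mouse 2, with a log2 fold change of 3.13 ± 1.21 by edgeR and an adjusted p of 0.037 by DESeq2. Its log2 fold change was 0.91 with groups drawn again after thinning, and 1.53 and 4.75 with mouse 1 and mouse 2 left out, so its size was not settled.

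**Figure D2:**
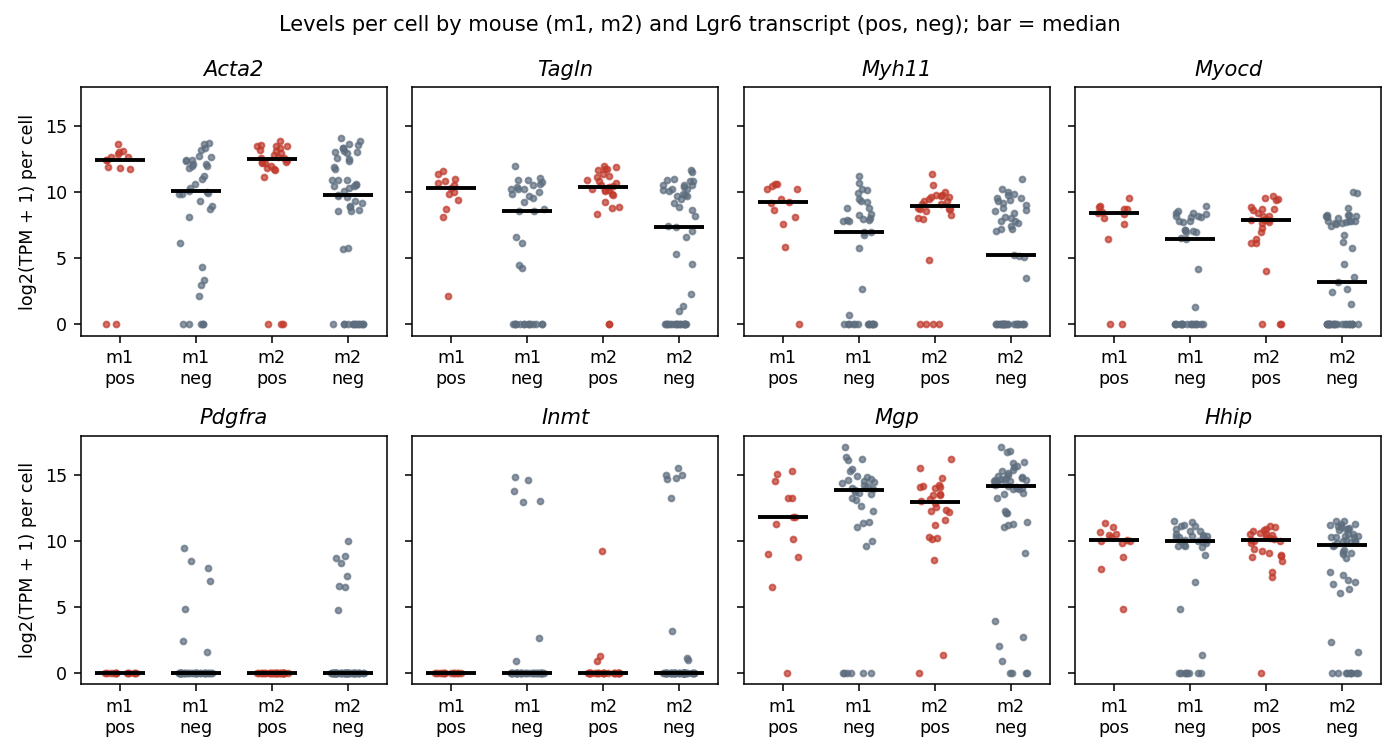
log2(TPM + 1) per cell of 8 genes (vertical axis) by mouse and group, with positive cells in red, negative cells in grey and a black bar at each median. Acta2, Tagln, Myh11 and Myocd medians are higher in positive cells of both mice, negative cells span the whole range, and Pdgfra and Inmt are seen in a minority of negative cells.

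Negative cells were a mixture with respect to these genes. Per cell, the contractile list summed to 2238, 27230 and 76930 CPM (lowest, median, highest) in positive and 199, 6606 and 83980 in negative cells of mouse 1. In mouse 2 the values were 94.6, 22880 and 74880 against 329, 4047 and 88970. The ranges overlap almost entirely, and 6 of 37 and 12 of 49 negative cells reached the positive median of their mouse.

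The comparison was repeated with depth evened out. With cells thinned to 83000 reads, 16 of 16 contractile genes were still higher in both mice (22.4% of all genes tested) and the list median was 1.08. With each positive cell matched to a negative cell of the same mouse and similar depth, 12 of 16 were higher in both mice (25.8% of all genes tested), none was lower in both, and the median was 0.62. In those matched cells the median per mouse was 0.27 in mouse 1 and 1.02 in mouse 2. After thinning, Cnn1 was read in 11 of 13 and 20 of 26 positive cells, against 6 of 25 and 16 of 48 negative cells.

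Myl9 also carries a CArG box in its proximal promoter, the motif bound by serum response factor, with which Myocd acts. Both strands are covered by the search, since the motif is its own reverse complement in form. Of the 16 contractile genes, 12 had a RefSeq promoter in the set used, and Tagln, Myh11, Actg2 and Myocd did not. Myl9 and Actc1, 2 of the 12, held an exact match in the 250 bases before the start, which 1.62% of 27025 promoters did. No exact match was in that window of Lgr6. Sequences close to the motif were not counted. A promoter without an exact match, such as that of Acta2, is therefore not shown to lack a CArG box. The stretch of the Myl9 promoter with its match in capitals is chr2:156775214-156775363 (GRCm38.p6, plus strand).

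Myl9: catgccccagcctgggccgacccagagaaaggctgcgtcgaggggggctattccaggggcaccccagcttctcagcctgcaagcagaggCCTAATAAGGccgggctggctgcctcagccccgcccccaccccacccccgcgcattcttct

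Genes of alveolar fibroblasts were the other side of the comparison. All 12 listed genes were lower in positive cells of both mice (29.6% of all genes), 8 of them by at least 2-fold in both (11.8%). The list median log2 fold change was -6.16 with genes at 0 reads set to their bound. The paper names Pdgfra, Wnt2, Fgf10 and Vcam1 as high in 1 cluster of its kept cells, which include these cells. The list is therefore not independent of these data. Pdgfra, the PDGF receptor that marks many lung fibroblasts, had 0 and 0.10 CPM in positive cells and 100.9 and 232 in negative cells. Vcam1, an adhesion molecule, had 0 and 0.02 against 25.6 and 149.9. Inmt, a methyltransferase abundant in lung, had 0 and 7.21 against 829 and 2160. The 2 positive sums lay below both negative sums for each of these 3 genes, and the share of all genes separated in this way was not computed. DESeq2 called these 3 lower with Wnt2, Cd34 and Col13a1, against 2.77% of all genes. None of the list passed edgeR's threshold, where its lowest adjusted p was 0.96. In mouse 1 the top negative cell held 80.6% of the Pdgfra, 64.45% of the Vcam1 and 81% of the Inmt reads of its group. In mouse 2 these shares were 34.8%, 28.5% and 36.7%. A single negative cell of mouse 1 held 65.3% of the list's reads. Without it the negative sum was 583.5 CPM, against 1339 with it and 149.1 in positive cells.

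Cd34 and Wnt2 had 0 reads in all 39 positive cells. They passed the filter on low counts through the negative cells alone. At a floor of 3 reads over the group, the ratio of the summed levels was at least 877-fold for Cd34 and 338-fold for Wnt2. These bounds cover counting error only, not which cells happened to be sampled. Their reads came from few cells: Cd34 was read in 5 and 6 negative cells, and 1 cell held 81.7% and 70.9% of its reads in mouse 1 and mouse 2. Wnt2 was read in 2 and 4 negative cells.

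The fibroblast genes marked a minority of the negative cells rather than all of them. The list summed to over 1000 CPM in 7 of 37 and 9 of 49 negative cells, and in 1 of 13 and 0 of 26 positive cells. The median negative cell held 217 CPM in mouse 1 and 6.86 in mouse 2, against 58.2 and 1.63 for positive cells. Fgf10, a mesenchymal growth factor for epithelium, was measured at 14.7 against 21.02 CPM in mouse 1 and at 0.16 against 6.06 in mouse 2, with a log2 fold change of -2.83 ± 2.58.

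**Figure D3:**
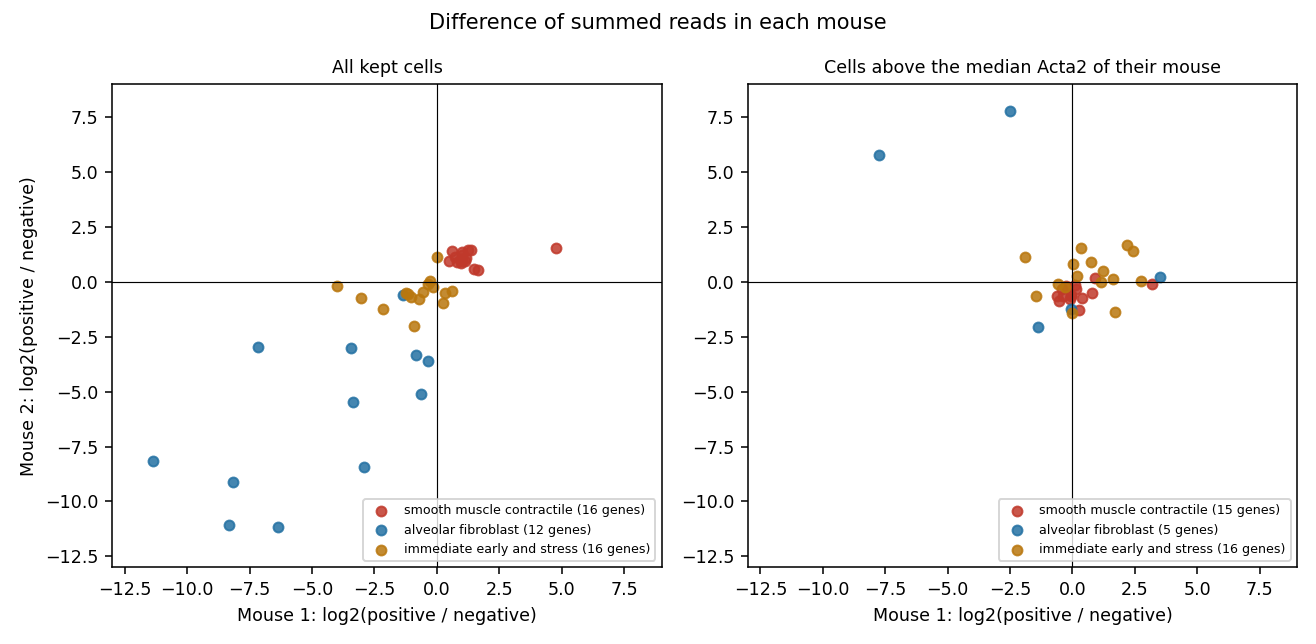
log2 difference of summed reads between positive and negative cells in mouse 1 (horizontal axis) and mouse 2 (vertical axis), 1 point per gene, for the contractile (red), alveolar fibroblast (blue) and immediate early (ochre) lists; counts under 3 were set to 3. In all kept cells the red points lie at upper right and the blue points at lower left, and in cells above the median Acta2 (right) the red points spread around 0.

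By the rule for named genes, the genes of smallest p with an average above 32 CPM and the same direction in both mice were taken, and none of them passed edgeR's threshold. Higher in positive cells were Myl9, Net1, Acta2, Lpp, Cnn1, Myh11, Tagln, Dstn, Flna and Des. Net1, an exchange factor for the GTPase RhoA, was at 1042 against 319 CPM in mouse 1 and at 770.5 against 273 in mouse 2, with a log2 fold change of 1.59 ± 0.30. Flna, filamin A, which cross-links actin, was at 4646 against 2520 and at 3600 against 2054, with 0.83 ± 0.18. Des, desmin, the intermediate filament protein of muscle, was at 2473 against 1128 and at 1942 against 1058.

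Lower in positive cells were, among others, Hsd11b1, Adh1, Pdgfra, Cxcl1, Serpina3n, Gpx3, Vcam1, Lrat and Dpep1. Hsd11b1, which regenerates active glucocorticoid, had the smallest edgeR p (adjusted p = 0.67) and 0 and 1 reads in positive cells, against 2532 and 26232 reads in negative cells. Adh1 and Lrat take part in retinoid metabolism; Adh1 had 0 and 1 reads against 5244 and 12012, and Lrat had 0 reads in all positive cells against 1762 and 11647. Serpina3n, a protease inhibitor, was also at 0 reads in all positive cells. Their reads came from 3 to 10 negative cells per mouse, but not evenly. The top negative cell of mouse 1 held 71.05% of Hsd11b1, 91.34% of Adh1, 99.38% of Lrat and 56.98% of Serpina3n reads. In mouse 2 these shares were 37.48%, 22.15%, 30.13% and 59.07%. Gpx3, an extracellular glutathione peroxidase, was different in kind: it was read in 6 of 13 and 12 of 26 positive cells, at 191.9 and 195 CPM, against 934 and 1950 in negative cells, a log2 fold change of -2.82 ± 0.35.

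Matrix genes had no common direction. Mgp, matrix Gla protein, an inhibitor of calcification, was at 1045 against 4359 CPM in mouse 1 and at 1803 against 4604 in mouse 2, with a log2 fold change of -1.72 ± 0.29. Fn1, fibronectin, was at 16.8 against 166.9 and at 41.4 against 275, with -3.03 ± 0.58. DESeq2 called these 2 of the 16 listed matrix genes, both lower. Of the list, 8 were lower and 1 was higher in both mice (29.6% and 22.8% of all genes), and the fibrillar collagens Col1a2 and Col3a1 had opposite directions in the 2 mice. Col1a1, also a fibrillar collagen, was at 338 against 940 and at 548 against 628, and Col4a1, a basement membrane collagen, at 176.2 against 262 and at 206 against 295. In negative cells of mouse 1, the top cell held 53.8% of the Col1a2, 40.1% of the Col3a1 and 66.9% of the Col1a1 reads. A single cell there held 43.7% of the list's reads. Without it the negative sum was 13130 CPM, against 18580 with it and 7779 in positive cells. Directions of single genes without their top cell were not computed. With matched cells 6 of the 16 matrix genes were lower in both, and the share of all genes was not computed there.

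Genes of Wnt and R-spondin signalling were mostly few reads in few cells. Of 21 listed R-spondins and Wnt receptors, 14 were tested, and none was called by edgeR or DESeq2. In both mice 3 were higher and 2 lower (22.8% and 29.6% of all genes). Lgr5, the paralog of Lgr6, was at 0.90 against 40.1 CPM in mouse 1 and at 96.65 against 39.01 in mouse 2. The summed directions were opposite, but each rested largely on 1 cell. A single cell held 97.6% of the Lgr5 reads of negative cells in mouse 1, and another 94.65% of those of positive cells in mouse 2. Lgr4, another R-spondin receptor, was at 26.6 against 1.65 and at 8.80 against 8.80, and Rspo1 was below 0.61 CPM in every sum. Rspo2 had no read in any group and Rspo3 was read in 1 positive cell. Nkd1, an intracellular inhibitor and target of Wnt signalling, was at 288 against 76 and at 148.1 against 102.5, with a log2 fold change of 1.21 ± 0.56 that did not pass. Wif1, a secreted Wnt inhibitor, was called lower by DESeq2, with 0 reads in positive cells; its reads came from 2 and 3 negative cells. Sfrp2, also a secreted Wnt inhibitor, was called in the same way from 2 and 2 negative cells. The Wnt target Axin2 was at 0.57 against 4.04 and at 23.8 against 1.07, and the Wnt-responsive factors Lef1 and Tcf7 were at most 1.02 and 5.42 CPM. Of the Wnt ligands, 5 of 19 were tested. Wnt1 had no read and Wnt3 at most 0.013 CPM, Wnt2b was at most 3.39, and Wnt5a was at 11.5 against 333 in mouse 1 and at 218 against 256 in mouse 2.

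No Hedgehog pathway gene was called between the groups. Hhip was at 4264 against 3857 CPM in mouse 1 and at 3891 against 3000 in mouse 2, with a log2 fold change of 0.24 ± 0.20. Of the 8 listed, 4 were higher and none was lower in both mice (22.8% and 29.6% of all genes), with a median of 0.07. Gli1, a transcriptional target of the pathway, was at 13.7 against 34.2 in mouse 1 and at 33.4 against 15.4 in mouse 2. Ptch1, the Hedgehog receptor and itself a target, was at 157.4 against 142.1 and at 192.6 against 76.95, and the transcription factors Gli2 and Gli3 lay between 5.28 and 43.5 CPM in every sum.

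Among receptors that set airway tone, 10 of 14 were tested, 6 higher and 2 lower in both mice (22.8% and 29.6% of all genes). Chrm2, a muscarinic acetylcholine receptor, was at 740 against 538 CPM in mouse 1 and at 269 against 141.6 in mouse 2, with a log2 fold change of 0.68 ± 0.37. Ednrb, an endothelin receptor, was at 1174 against 870.5 and at 1192 against 512, with 0.81 ± 0.35. Neither of the 2 passed either tool. Chrm3, the other muscarinic receptor listed, was read in 1 positive cell of each mouse, and Hrh1, a histamine receptor, was at most 0.026 CPM. Ptger4, a prostaglandin receptor, was called higher by DESeq2, from reads in 1 and 2 positive cells.

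Among growth factors, 20 of 23 listed genes were tested, 5 higher and 6 lower in both mice, close to the shares of all genes (22.8% and 29.6%). Bmp5, a secreted BMP ligand, was at 46.2 against 218 CPM in mouse 1 and at 24.7 against 133.7 in mouse 2, with a log2 fold change of -2.35 ± 0.56, and DESeq2 called it. It was read in 2 of 13 and 4 of 26 positive cells, and in 18 of 37 and 21 of 49 negative cells. Fgf9 was at 25.2 against 5.19 and at 43.95 against 3.71, with 2.91 ± 1.54, and was not called. The top positive cell held 89.7% of its group's Fgf9 reads in mouse 1 and 37.4% in mouse 2. For the top negative cell these shares were 32.7% and 61.1%. Fgf7, a mesenchymal growth factor for epithelium, was at 184.7 against 41.04 and at 125.04 against 125.2, with 1.07 ± 0.73. Fgf1 and Fgf2 were at most 11.6 and 3.65 CPM. Bmp7, another BMP ligand, was called lower by DESeq2, with 0 reads in positive cells and all its reads from 1 negative cell of each mouse.

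Immediate early genes, which respond within minutes to stimulation and to tissue dissociation, were lower in both mice in 11 of 16 cases (29.6% of all genes), and 1 was higher in both. Zfp36, which destabilises mRNA, was at 268 against 1085 CPM in mouse 1 and at 208 against 525 in mouse 2, with a log2 fold change of -1.69 ± 0.38, the single gene of the list called by DESeq2. The AP-1 genes Fos, Jun and Junb, the first of the list with Fosb, were not called, with log2 fold changes of -0.12, -0.09 and -0.36. Atf3, a stress-induced transcription factor, was at 524 against 897 and at 206 against 877. With matched cells, 6 of 16 were lower in both mice, and the share of all genes lower in both was not computed there. The part of these genes in the other differences was not tested.

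Markers of other cell types were checked in the same sums. Epithelial genes were lower in positive cells of both mice in 10 of 11 tested (29.6% of all genes). With matched cells 2 of 11 were, where the share of all genes was not computed. The list median was -4.05, and -1.39 with matched cells. DESeq2 called the surfactant genes Sftpc, Sftpb and Sftpd lower: Sftpc was at 0.23 against 1720 CPM in mouse 1 and at 8052 against 11444 in mouse 2. Cdh1, epithelial cadherin, was at 1.02 against 7.09 and at 22.5 against 105.5. The sum of the list was 8.14 against 3348 CPM in mouse 1 and 11864 against 21333 in mouse 2, and in mouse 2 1 positive cell held 99.9% of it. Leaving out the 12 cells with epithelial marks, 1 of them positive, gave a contractile list median of 0.94 and 0 calls by edgeR. The pericyte markers Notch3, Higd1b and Vtn were at 0 reads in every sum. Of 10 tested pericyte and vascular mural genes, 3 were higher and 2 lower in both mice (22.8% and 29.6% of all genes). Rgs5 was at 61.6 against 2.90 and at 13.1 against 1.92 CPM. It was read in 5 and 4 positive and in 2 and 1 negative cells of mouse 1 and mouse 2. The top positive cell held 51.6% and 77.5% of its group's reads. Other genes of that list were abundant in both groups: Kcnj8, a potassium channel subunit, ranged from 273 to 558 CPM over the 4 sums, Abcc9 from 77.8 to 218.5 and Postn, periostin, from 149.8 to 281. Pdgfrb was at 49.8 against 141.8 and at 93.4 against 97.6, and Cspg4 at 90.5 against 16.5 and at 72.8 against 55.4. Lamc3, a laminin chain, was the gene of the list that DESeq2 called, lower, with 0 reads in positive cells and reads in 3 negative cells of each mouse. The immune gene Ptprc, the endothelial genes Pecam1 and Emcn and the mesothelial genes Msln, Upk3b and Wt1 had at most 0.13 CPM in any sum, and immune and endothelial lists summed to at most 113.01 and 106.6. Few genes made up those sums. Kdr, a VEGF receptor, was at 0 against 103.8 and at 0 against 4.71 CPM, all from 1 negative cell of each mouse, and DESeq2 called it lower. Cd74, of antigen presentation, was at 1.58 against 13.1 and at 66.4 against 108.03, and Tyrobp was at 25.9 CPM in positive cells of mouse 2, all from 1 cell. Cd3e had no read, the mesothelial gene Lrrn4 was at most 0.68 CPM, and Cd68, Cdh5 and Cldn5 were at most 7.45, 2.70 and 3.18 CPM. Glial, erythroid and cell cycle genes gave 1, 0 and 0 higher and 1, 0 and 0 lower in both mice, of 3, 1 and 5 tested. Among all genes the shares were 22.8% and 29.6%.

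Since Acta2-rich cells were unequally shared between the groups, the comparison was repeated among cells above the median Acta2 of their mouse, with 11 positive and 14 negative cells in mouse 1 and 22 and 15 in mouse 2. These cells were selected on Acta2 and Lgr6, so those 2 genes were not tested. Of 11263 genes, 0 (0.0%) passed edgeR's threshold and 259 had an unadjusted p under 0.05. DESeq2 called 315 genes, 199 of them higher (2.04% of 9734) and the others lower (1.19%), and limma called 0 with either pseudocount. Of all genes, 26.2% were higher and 22% lower in both mice, and 13.3% and 8.23% were so by at least 2-fold.

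Among Acta2-rich cells few contractile genes were higher in positive cells of both mice. Of 15 tested, 1 was higher (Myocd) and 8 were lower in both mice, and the list median was -0.32. Thinned to 83000 reads, 3 were higher, none was lower in both mice, and the median was 0.12. Per mouse the thinned median was 0.63 in mouse 1 and -0.45 in mouse 2, so the 2 mice differed in direction and the list did not separate the groups either way. Per cell, the list summed to a median of 31050 CPM in positive and 19200 in negative cells of mouse 1, and to 24130 against 38690 in mouse 2. A single cell held 59.95% of the list's reads in the negative cells of mouse 1 here; the negative sum was 34600 CPM with it and 24700 without it, against 35660 in positive cells. Tagln differed by 0.11 on the log2 scale in mouse 1 and by -0.12 in mouse 2. Myh11 had a log2 fold change of -0.24 and Cnn1 of -0.49, and neither passed. This comparison shares its cells with that of all cells, and the difference between these comparisons was not tested.

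**Figure D4:**
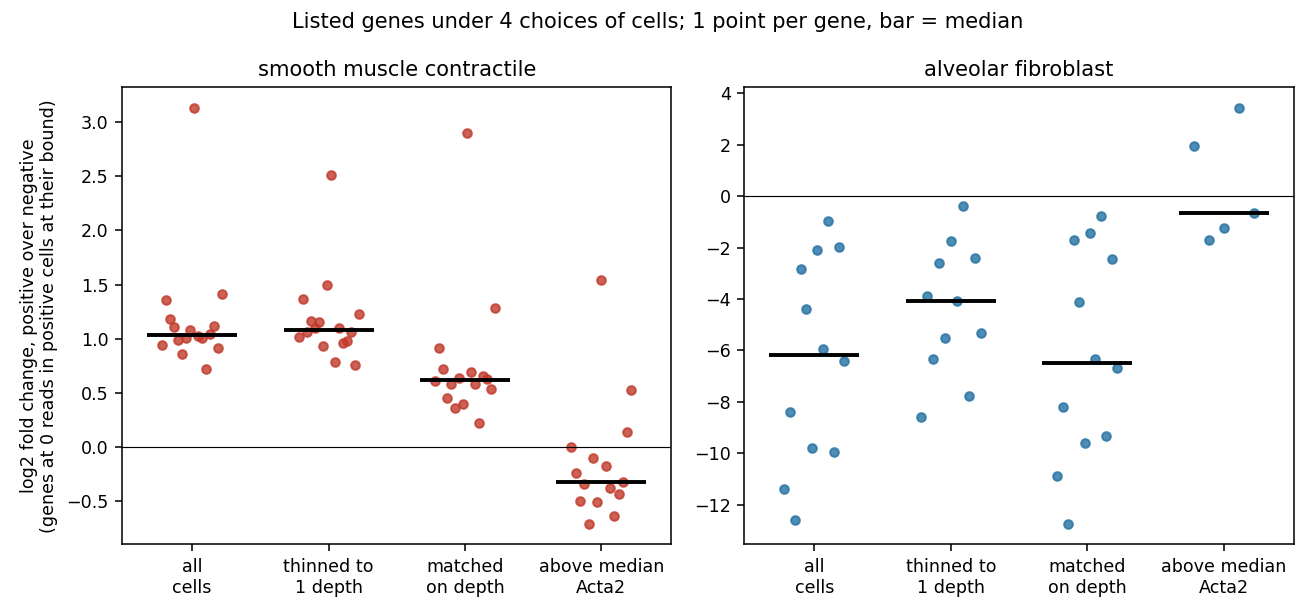
log2 fold change of each listed gene (vertical axis, positive over negative; genes at 0 reads in positive cells at their bound) for 4 choices of cells, with a black bar at the median. The contractile median is 1.03 in all cells, 1.08 thinned, 0.62 matched and -0.32 above the median Acta2, and 5 of the 12 fibroblast genes could be tested in the last.

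Most alveolar fibroblast genes were too low to test among Acta2-rich cells: 5 of 12 passed the filter on low counts, 1 higher and 2 lower in both mice. A level over 1000 CPM for that list was found in 1 of 14 and 1 of 15 negative cells there, and in 1 of 11 and 0 of 22 positive cells. Immediate early genes were higher in both mice in 10 of 16 cases (26.2% of all genes), with 8 of 15 when thinned and 7 of 16 when matched. The share of all genes was not computed for thinned or matched Acta2-rich cells. Fosb was at a log2 fold change of 1.95 and Ier2 of 1.90, and none was called by either tool. Across 4111 genes averaging over 32 CPM, 48.04% had the same direction in both mice here, against 55.6% of 4211 in all cells.

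The genes named by the same rule among Acta2-rich cells rested on few cells. Higher were Arrb1, Srr, Fnta, Arhgap32 and Klhdc4, and lower were Rn45s, Got1, Abhd16a, Kcnh2 and Gstt2, all with an adjusted p of 1 by edgeR. DESeq2 called the 5 higher genes and Got1, Kcnh2 and Gstt2 among the lower ones. Arrb1, a beta-arrestin that uncouples receptors from G proteins, had 307 and 6019 reads in positive and 0 and 2 in negative cells. Klhdc4 had 317 and 4507 reads against 0, all from 1 and 4 positive cells. At the floor of 3 reads the ratio of its summed levels was at least 808-fold, a bound on counting error only. Abhd16a had 412 and 1797 reads in positive and 3390 and 4300 in negative cells, with a log2 fold change of -2.90, the most widely read of the lower genes apart from Rn45s. Rn45s, the ribosomal RNA precursor, held 36.5% of all reads of the kept Lgr6+ cells, and its log2 fold change of -0.11 was small.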

How the data were processed

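Full-length cDNA of single sorted cells was amplified without molecular identifiers and sequenced as 38-bp paired ends. Per the labels, kallisto 0.43.0 and mm10 were used; the authors deposited counts per gene for 384 wells and log2(TPM + 1) values for the 182 cells that passed their filter, which held 22276 of 23422 genes and not Rn45s. The members and lists were chosen with earlier results of these data known. Counts were summed per mouse and group, giving 8848216, 20027062, 49096638 and 75553906 reads (positive and negative cells of mouse 1, then mouse 2). The sums were filtered with filterByExpr, scaled by TMM and fitted with edgeR 4.0.16 (glmQLFit, glmQLFTest; R 4.3.3) with the mouse as a block, since positive and negative cells come from the same animal; the deviations of same-mouse sums from their group means correlated at r = 0.05 across 4211 genes. Adjusted p-values are Benjamini-Hochberg over all genes, and 0.05 was the threshold. Directions per mouse use counts of at least 3. Alternatives were DESeq2 1.42.0, limma 3.58.1 on log2(mean TPM + 1) or + 0.1, library size, no filter, no block, thinned, matched or relabelled cells, and sums without Rn45s, which was chosen after seeing the data. Gene names followed a rule: the first 4 genes of each list (glial, erythroid and cell cycle lists are given by counts), those called, those at or near 0, and up to 10 genes per direction (5 among Acta2-rich cells) of smallest p with an average above 32 CPM and 1 direction in both mice. Other genes of the lists were named after their values were seen. The tests were tested on simulated data. Cells with an Epcam count above 0 or Sftpc at 5 or more count as epithelial-marked. Some items withheld for evaluation are not reported here.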

Additional observations from a re-analysis of the deposited data

Results flagged for a closer look

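Pool wells were in no comparison. The pool well of Lgr6 mouse 1 held 11 Lgr6 reads among 66586 (165.2 CPM), whereas the pool wells of both Lgr5 mice held 0 among 353310 and 204948 reads, which allow up to 8.49 and 14.6 CPM at a limit of 3 counts. The pool well of Lgr6 mouse 2 held 8 among 2203576 (3.63 CPM), which does not exceed those limits. Each value is a single well.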

How the results depend on the processing

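edgeR's count of 0 genes in either comparison was the same without the replicate block (0 genes in both; 889 and 554 at an unadjusted p under 0.05), with library size, without the filter, with matched or thinned cells and without Rn45s. DESeq2 called 413 genes in all cells (93 higher, 320 lower) and 315 in Acta2-rich cells (199 higher). limma with a pseudocount of 1 called 5 lower, and groups drawn again after thinning gave 2 lower by edgeR (Fbln1 and Inmt). With 1 mouse left there is no residual degree of freedom, so no count of calls was made and values per mouse are given.

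In all cells, the contractile list median was 1.08 thinned, 0.62 matched, 1.10 by limma with either pseudocount, 0.89 with groups drawn again, 0.97 with a minimum of 10 reads, 0.94 without epithelial-marked cells, and 1.01 to 1.06 with 1 mouse left out. The fibroblast list median was -4.08 thinned, -3.66 by limma with a pseudocount of 1, -3.51 with groups drawn again, and -5.30 to -3.40 with 1 mouse left out. Among Acta2-rich cells the contractile median turned to 0.12 thinned and 0.028 by limma, and ran from -0.59 to -0.04 with 1 mouse left out; the fibroblast median ran from -1.38 to 0.25, the latter without mouse 1. Of 487 values of 38 named genes under the alternatives, 474 kept their direction. The 13 others were all among Acta2-rich cells. Tagln turned to 0.16 with library size, 0.016 without the filter, 0.40 thinned, 0.089 matched, 0.10 by limma, 0.0029 without Rn45s and 0.11 without mouse 2 (-0.12 without mouse 1). Myh11 turned to 0.014 thinned and 0.028 by limma, and Rn45s to 0.046 with library size and 0.25 thinned. Library size moved the median of all genes there from 0.15 to 0.30. The cause of these differences was not tested. Depth limits the negative group most, above all in mouse 1.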

Other observations

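Of the wells that the authors' filter removed, Lgr6 reads were found in 2 of 45 wells of Lgr6 mouse 1 and 0 of 20 of Lgr6 mouse 2, and in 20 of 66 and 12 of 67 wells of the Lgr5 mice. The removed wells of the Lgr6 mice had a median of 1180 and 1289 genes detected, and those of the Lgr5 mice 8267 and 5851.

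Of the 39 positive cells, 3 had an Lgr6 value of 0 in the table of TPM values despite a count above 0, and no negative cell had a value above 0.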
